A study of Mus musculus with 17 samples.

Results

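Chemokines are small secreted proteins that steer white blood cells, and chemokine receptors are the G-protein-coupled receptors that read them. RUNX1 and CHD7 peaks were described around 57 mouse genes of these families in the mouse myeloid progenitor line 416B with and without induced Cbfb-Myh11 (CM), the fusion protein of acute myeloid leukaemia with an inverted chromosome 16. The 57 genes were all protein-coding genes whose symbol begins with Ccl, Cxcl, Ccr, Cxcr, Xcl, Xcr, Cx3cl or Cx3cr followed by a number, with at most 1 letter after it, among 21883 protein-coding genes of chromosomes 1 to 19, X and Y. There were 39 ligands and 18 receptors. A peak was assigned to a gene when it lay in the gene body or within 20 kb of it.

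Every cell carried a plasmid with the tetracycline-controlled silencer tTS, the transactivator rtTA and blasticidin resistance under an Ef1alpha promoter. The CM cells also carried the Cbfb-Myh11 type A cDNA joined by an F2A element to mCherry under a tetracycline-responsive element, and the Control cells carried that plasmid without the CM sequence. The cultures were clonal, so construct and clone cannot be told apart. Each construct was used without doxycycline (Control -Dox, CM -Dox) and after 24 hours with it at 1 ug/ml (Control +Dox, CM +Dox), with 2 libraries per condition and antibody. The 2 CM +Dox libraries are the only ones from cells induced to make the fusion, and they were compared with the 6 others of the antibody.

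Ligands of the CC and CXC families differ in the spacing of their first cysteines. Inflammatory CC ligands draw monocytes and eosinophils, a subset of CXC ligands draws neutrophils through Cxcr2, and interferon-induced CXC ligands draw activated T cells through Cxcr3. Homeostatic ligands such as Cxcl12, which holds stem cells in the marrow through Cxcr4, place cells in tissues. Myeloid cells both make inflammatory ligands and carry receptors such as Ccr1, Ccr2 and Cxcr2. RUNX1 is a DNA-binding transcription factor of blood cells whose partner CBFB is the protein altered in the fusion. CHD7 is a chromatin remodeller. Many of these genes arose by duplication and lie in clusters, and 31 of the 57 shared their window with another. Their median length was 5124 bp, against 17170 bp for all protein-coding genes. The near-identical copies of Ccl21 and Ccl27 on chromosome 4 are uncertain because reads can map to several of them.

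The RUNX1 lists held 12603 to 16163 peaks in the 6 libraries without CM and 8140 and 9710 in CM +Dox. They were called at different p thresholds, 1e-09 in 5 lists and 1e-07 in 3. The CHD7 lists held 16323 to 37698 peaks. Read depth is unknown, and a shorter list lowers the number of genes with a peak, so counts are given beside those over all genes and with the same number of peaks in every list. In bulk chromatin, fewer cells with a bound site and less binding per cell cannot be told apart. In 1 library, RUNX1 replicate 1 of Control -Dox, the peak names contradict the label by reading +Dox. The label was followed; comparisons with Control -Dox and the count of lost sites are also given without that library. Peaks do not measure expression. RUNX1 peaks lay at 6 of 8 myeloid progenitor marker genes in both Control -Dox libraries, none at Mpo or Csf3r, and at 4 of 8 lymphoid and liver markers, against 43.8% of all genes.

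The chemokine promoters that were listed seldom carried RUNX1. RefSeq promoters (GRCm38.p6, the 250 bases before each start) were listed for 42 of the 57 genes, 49 promoters in all. Genes without a listed promoter include Ccl2, Ccl4, Ccl5, Cxcl5, Ccr10 and Cxcr5, which had RUNX1 in their windows. Promoters of the hard-to-map Ccl21 and Ccl27 copies are among the 49, with 4 for Ccl27b alone. The shares below therefore describe the listed promoters and not the whole family. A RUNX1 peak lay on 2 of the 49 (4.08%) in any library, those of Ccr1 and Ccl25, and both had it in all 8 libraries. Over all genes, 8.40% of 21262 promoters had a RUNX1 peak in all 8 and 27.1% in at least 1. CHD7 lay in at least 1 library on 6 of the 49 (12.2%), against 26.5% of all promoters: Cxcr2, Cxcr4, Cxcl10, Ccr1, Ccr2 and Ccl9. The letters TGTGGT or TGCGGT, the core RUNX motif, were found on either strand in 9 of 49 promoters (18.4%), against 17.7% of all. The promoters below are those of the pair with RUNX1, of Cxcl9, whose RUNX1 peak just inside the gene was absent with induced CM, and of Cxcr4, which carried only CHD7. Capitals mark the motif on either strand, and each sequence runs 5′ to 3′ on the gene's strand.
Ccr1 (chr9:123968693-123968942, minus strand): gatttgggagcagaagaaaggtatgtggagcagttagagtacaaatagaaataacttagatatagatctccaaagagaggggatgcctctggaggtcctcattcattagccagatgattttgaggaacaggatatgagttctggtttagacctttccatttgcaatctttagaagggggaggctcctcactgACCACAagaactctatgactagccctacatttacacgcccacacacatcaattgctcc
Ccl25 (chr8:4324960-4325209, plus strand): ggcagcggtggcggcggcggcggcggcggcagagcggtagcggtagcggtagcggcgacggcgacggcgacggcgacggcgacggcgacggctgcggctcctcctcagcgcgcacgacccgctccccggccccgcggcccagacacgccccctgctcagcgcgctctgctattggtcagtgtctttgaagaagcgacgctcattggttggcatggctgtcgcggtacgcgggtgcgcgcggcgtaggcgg
Cxcl9 (chr5:92328080-92328329, minus strand): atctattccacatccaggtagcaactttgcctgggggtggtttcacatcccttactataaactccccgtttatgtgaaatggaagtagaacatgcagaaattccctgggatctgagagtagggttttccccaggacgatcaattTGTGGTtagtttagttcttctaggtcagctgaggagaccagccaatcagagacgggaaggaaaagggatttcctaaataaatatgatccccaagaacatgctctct
Cxcr4 (chr1:128592300-128592549, minus strand): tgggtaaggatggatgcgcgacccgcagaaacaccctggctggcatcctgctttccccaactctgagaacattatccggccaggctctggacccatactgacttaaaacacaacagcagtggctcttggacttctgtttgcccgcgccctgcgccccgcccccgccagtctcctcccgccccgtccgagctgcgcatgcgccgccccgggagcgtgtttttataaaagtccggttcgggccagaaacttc
The Ccr1 motif lies at position -58 from the start and that of Cxcl9 at position -106. No match in the other two says only that these letters are not in this window.

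In the windows around the genes, RUNX1 was about as frequent as around all protein-coding genes. A RUNX1 peak lay in the window of 28, 28, 29, 28, 28 and 31 of the 57 genes in Control -Dox replicates 1 and 2, Control +Dox replicates 1 and 2, and CM -Dox replicates 1 and 2. It lay in the window of 21 and 26 genes in CM +Dox replicates 1 and 2. Those counts were 49.1% to 54.4% of the 57 genes without CM, against 43.4% to 49.6% of all genes. With CM they were 36.8% and 45.6%, against 37.8% and 39.8%. Both CM +Dox libraries were below the lowest of the others, with 23.5 ± 3.54 genes (SD, n = 2) against 28.67 ± 1.21 (SD, n = 6), a difference of -5.17 genes. In percent of genes the difference was -9.06 points among the 57 genes and -8.50 points among all genes. Without the library with the mismatched tag it was -5.3 genes. With only the RUNX1 peaks of a -log10 p of 9 or more in every list, it stayed at -5.17 genes. With 8140 peaks taken from every list the difference was -1.33 genes (23.0 against 24.33). Without CM +Dox replicate 1 it was -2.67 genes, and without replicate 2 it was -7.67. For CHD7, the counts were 29, 33, 26, 37, 29 and 39 genes in the same order, and 31 and 34 with CM. The means were 32.5 ± 2.12 (SD, n = 2) and 32.17 ± 5.08 (SD, n = 6), and the CM +Dox values lay within the range of the others. As a share of genes, CHD7 in CM +Dox differed by 0.585 points among the 57 genes and by 6.17 points among all genes. Over all genes the CM +Dox values, 55.5% and 58.1%, also lay within the range of the others, 44.45% to 59.7%.

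**Figure D1:**
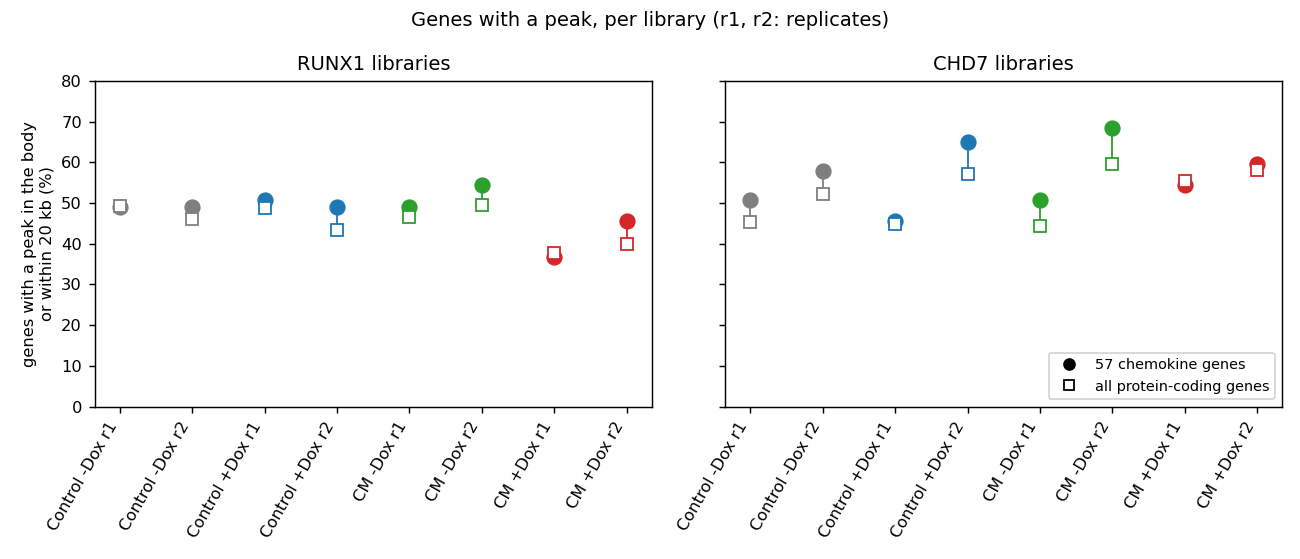
Percent of genes with a peak in the body or within 20 kb (vertical axis) in each library (horizontal axis), for RUNX1 (left) and CHD7 (right); circles are the 57 chemokine genes, squares all protein-coding genes. RUNX1 shares are lowest in both CM +Dox libraries for both gene groups, at 36.8% and 45.6% of the chemokine genes, while the CHD7 shares with CM lie among the others.

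By role, inflammatory CC ligands had RUNX1 most often among the larger groups, with 9 of 12 genes bound in both Control -Dox libraries, 9 in Control +Dox, 9 in CM -Dox and 7 in CM +Dox. Over all genes these shares were 43.8%, 41.1%, 45% and 34.5%. Ccl2, Ccl7 and Ccl11 share a RUNX1 site, as do Ccl3 and Ccl4, so the 12 genes are not separate observations. Their windows held 6 sites called in all 6 libraries without CM. Ccl8 and Ccl12, inflammatory ligands of the same cluster as Ccl2, had no RUNX1 peak in any library. Neutrophil-attracting ligands had 2, 2, 3 and 2 of 5 bound, and the interferon-induced Cxcl9 and Cxcl10 had 2, 2, 2 and 1 of 2. Homeostatic and tissue ligands, which include the hard-to-map Ccl21 and Ccl27 copies, were seldom bound, at 4, 3, 4 and 2 of 20. Among receptors, 6, 6, 6 and 4 of 10 CC receptors and 4, 4, 3 and 3 of 8 CXC, XC and CX3C receptors were bound. Summed over the roles these are 27, 26, 27 and 19 of 57. Control -Dox replicate 2 alone, without the library whose peak names contradict its label, had RUNX1 at 28 of 57 (46.1% of all genes), with 1 more neutrophil-attracting ligand and the same number in each other role. CHD7 was bound in both replicates at 29, 24, 29 and 28 of 57, against 41.4%, 41.6%, 43.1% and 48.7% of all genes. Inflammatory CC ligands had CHD7 at 10, 9, 10 and 9 of 12, the neutrophil-attracting ligands at 4, 4, 5 and 5 of 5 and the interferon-induced pair at 2 of 2 throughout, whereas homeostatic ligands had 4, 2, 4 and 4 of 20.

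RUNX1 lay in the window of 18 genes in all 8 libraries (31.6%, against 28.8% of all genes) and CHD7 in that of 22 (38.6%, against 31.3%). No library had a RUNX1 peak at 23 genes (40.4%, against 42.7%) or a CHD7 peak at 12 (21.1%, against 26.8%). No gene had CHD7 in each of the 6 other libraries and neither CM +Dox library (0 of 57, against 0.16%), or in the CM +Dox libraries alone (0 of 57, against 0.562%). The 11 with neither were Ccl19, Ccl20, Ccl21a, Ccl21b, Ccl21c, Ccl21d, Ccl22, Ccl27b, Ccr7, Cxcl12 and Xcl1. The position listed for Ccl21c (chr4:59769-60899) lies in the first 3 Mb of the chromosome, where no list has a peak; it may be that of an unplaced scaffold, and the absence of peaks there may not describe the gene. They include the lymph node ligands of Ccr7 together with Ccr7 itself, and the marrow ligand Cxcl12. Its receptor Cxcr4 had no RUNX1 peak in its window either. The nearest RUNX1 site to Cxcr4 lay 22.3 kb away (chr1:128614557-128615676), just outside the window, and was called in all 8 libraries. CHD7 lay on the Cxcr4 start (chr1:128592005-128592731) in 4 of the 6 libraries without CM, both Control -Dox libraries and the replicate 2 libraries of Control +Dox and CM -Dox, and in neither CM +Dox library. Its ranks there were 69.1, 18.5, 52.6 and 18.5, where a rank is the percentile of the peak's score within its own list, 100 being the highest. Ranks of lists of different length are not compared between libraries. Where they are printed in a row, each gives the standing within its own list. A lower rank in the shorter CM +Dox lists is not read as weaker binding.

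**Figure D2:**
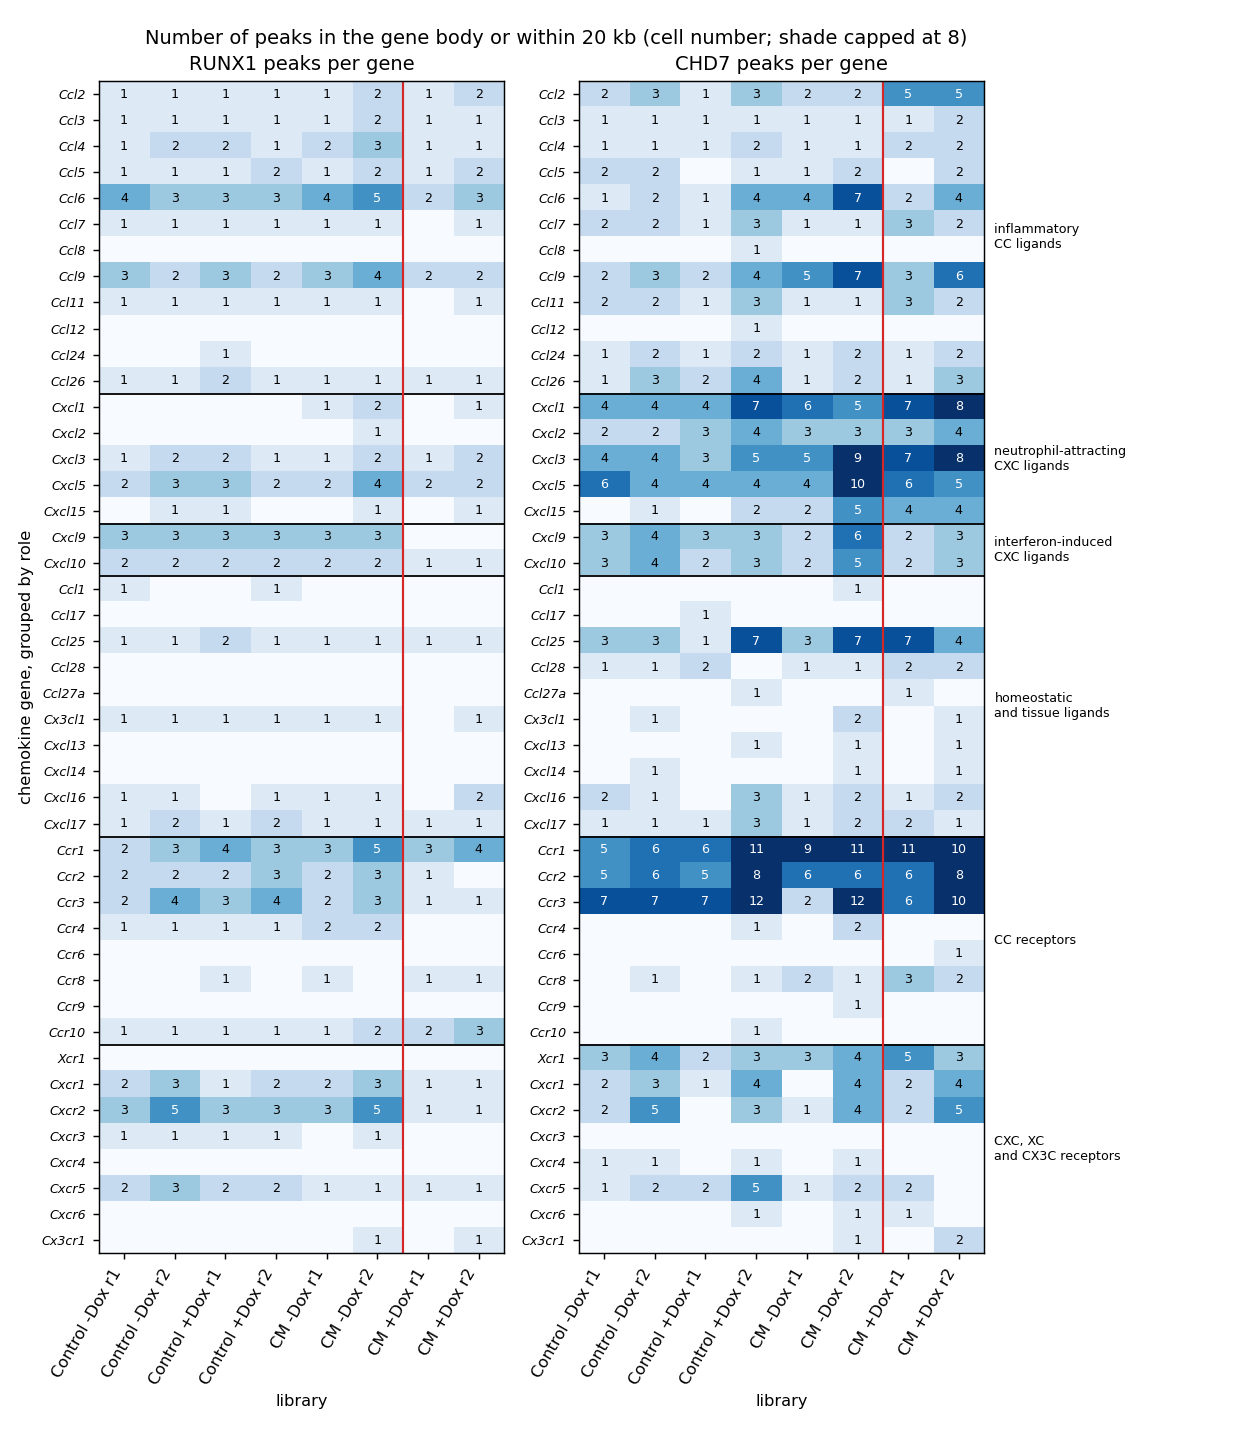
Number of RUNX1 (left) and CHD7 (right) peaks per chemokine gene (rows, grouped by role) in each library (columns), printed in each cell and shaded up to 8; the red line marks off CM +Dox, and the 11 genes without a peak of either antibody are among those not drawn. Cxcl9 goes from 3 RUNX1 peaks in each of 6 libraries to 0, Ccr2 from 2 or 3 to 1 and 0, while Ccl3, Ccl26 and Ccr1 keep theirs.

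RUNX1 peaks in the windows merged into 68 sites, of 21664 in the genome. Of these, 13 lay inside a chemokine gene, 12 inside another gene only and 43 outside genes, and 5 lay within 1 kb of a listed chemokine gene start. The nearest gene was another gene for 18 of the 68. In the 6 libraries without CM, 36, 43, 40, 41, 38 and 53 of the sites were called, and 21 and 31 with CM (26.0 ± 7.07, n = 2, against 41.83 ± 5.98, n = 6, SD). Of 25 sites called in all 6, both CM +Dox libraries called 15, 1 of them called 2, and neither called 8. The word lost below stands for that last pattern of calls, and gained for its mirror image, calls in both CM +Dox libraries alone.

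Lost sites made up 8 of 68 (11.8%), against 11% of all RUNX1 sites, and 8 of the 25 (32.0%), against 27.9% of 8531. The share near chemokine genes was thus close to that of the genome. Leaving out the library with the mismatched tag left the count at 8. The exact two-sided permutation test of a site's calls over the 28 choices of 2 libraries cannot give less than p = 0.0357. All 8 lost sites and 1 gained site reached that value unadjusted, among 2565 in the genome. After Benjamini-Hochberg adjustment over all sites, 0 of 21664 passed 0.05, the smallest adjusted exact permutation p being 0.302. Nothing in the labels says whether replicates were separate cultures, so these p-values measure only the spread between libraries. With 8140 peaks from each list, 6 of the 8 sites kept the pattern, as they did among peaks above the median score of their list. Windows of 5 kb held 4 lost sites and gene bodies alone 3, and 5 of the 8 had a chemokine gene as their nearest gene.

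**Figure D3:**
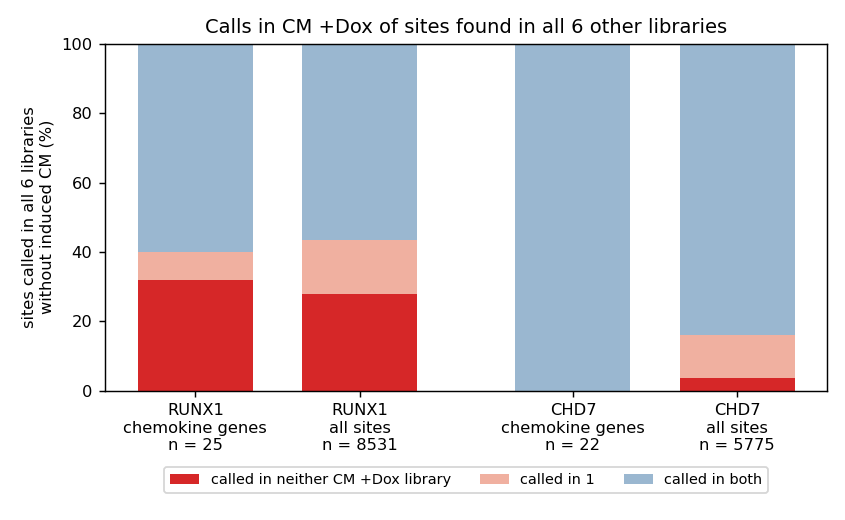
Percent of sites called in all 6 libraries without induced CM (vertical axis) that neither, 1 or both CM +Dox libraries called, for RUNX1 and CHD7, near chemokine genes and over all sites (bars, with the number of sites). Of the RUNX1 sites near chemokine genes and of all, 32.0% and 27.9% were called in neither and 8.0% and 15.4% in 1, while all 22 CHD7 sites near chemokine genes were called in both, against 84.0% of all.

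In the window of the interferon-induced ligand Cxcl9, every RUNX1 call was lost. The window held 3 RUNX1 peaks in each of the 6 libraries without CM and 0 in both CM +Dox libraries, so the groups did not overlap. Genes with RUNX1 in each of the 6 and in no CM +Dox library were Cxcl9 and the receptor gene Ccr4, 2 of 57 (3.51%), against 4.32% of all genes. No gene had RUNX1 in the 2 CM +Dox libraries alone (0 of 57, against 0.247%). The first Cxcl9 site (chr5:92327375-92327739) lies inside the gene, 0.522 kb downstream of its start, and also falls in the window of Cxcl10. Its ranks were 50.1, 80.8, 59.9, 77.6, 83.2 and 93.6 in the 6 libraries. The second (chr5:92313761-92314215) lies between Cxcl9 and Sdad1, with ranks of 73.1, 85.8, 81.2, 88.9, 71.6 and 82.9. Its nearest gene is Sdad1, 3.74 kb away. Both are peaks of middle to high standing in every list that calls them. The third (chr5:92309853-92310193), inside Sdad1, was weaker, with ranks of 31.7, 32.1, 27.3, 32.8, 15.0 and 32.5. With equal list lengths it was called in 0 of the 6 libraries, so only the other pair kept the pattern there.

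CHD7 stayed at the third of these sites. The CHD7 peak over it (chr5:92309592-92310332) was called in all 8 libraries, with ranks of 94.5, 96.2, 92.3, 97.2, 92.3 and 98.1 without CM and 90.6 and 97.8 with it, among the highest CHD7 peaks near any chemokine gene. At the site inside Cxcl9, CHD7 was called in 4 of the 6 libraries without CM and in CM +Dox replicate 2. At the second site it was called in 3 of the 6 and in neither CM +Dox library. Cxcl10, which is induced with Cxcl9 and binds the same receptor, kept a RUNX1 site inside Art3 (chr5:92368407-92368870), called in all 8 libraries and with CHD7 in all 8 as well. Its RUNX1 ranks ran from 36.3 through a median of 63.1 to 78.7 in the 6 libraries and were 35.4 and 60.2 with CM. The Cxcr3 gene, which encodes the receptor of both ligands, had 1 RUNX1 site (chrX:101733360-101734030, inside the gene) in 5 of 6 libraries without CM and neither with it, at low ranks of 16.9, 29.0, 3.80, 6.63 and 5.73, and no CHD7 peak.

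**Figure D4:**
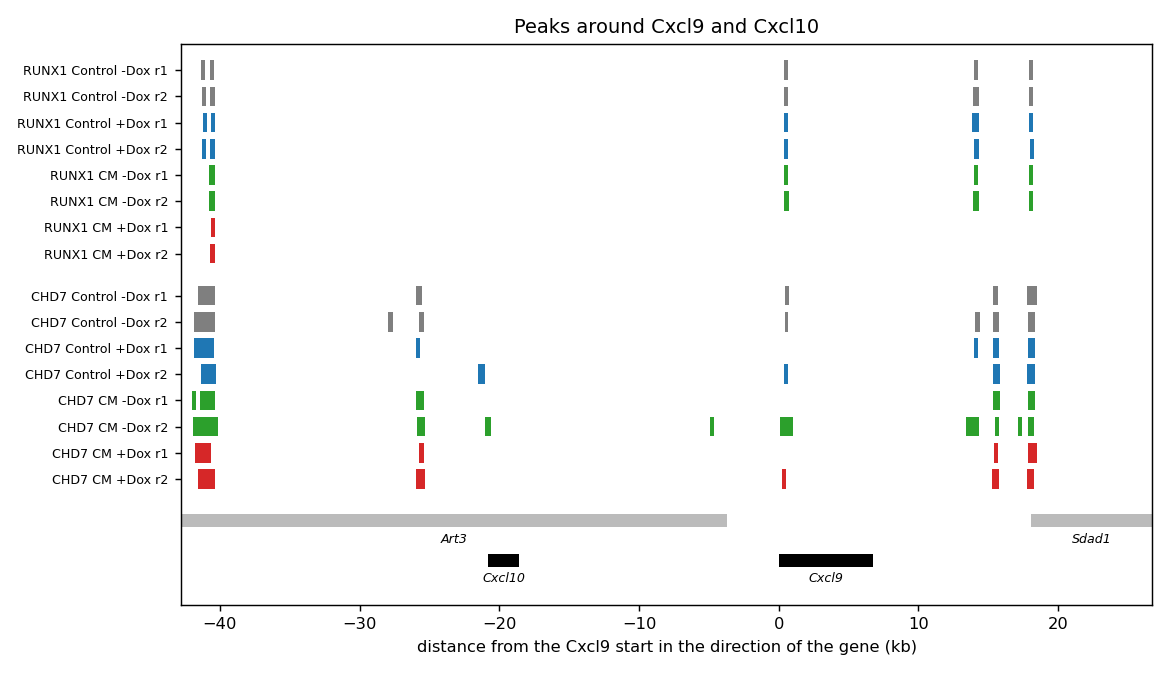
Peaks of each library (rows, coloured by condition) by distance from the Cxcl9 start in the direction of the gene, in kb; bars below show genes. The 3 RUNX1 peaks at and downstream of Cxcl9 appear in 6 libraries and not in the 2 CM +Dox libraries, while CHD7 over the farthest of them and RUNX1 in Art3 appear in all 8.

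In the CC receptor cluster of chromosome 9, the RUNX1 calls seen at Ccr2 without CM were absent with CM, whereas Ccr1 and Ccr3 kept sites. Ccr2 lets monocytes leave the marrow. It had 2, 2, 2, 3, 2 and 3 RUNX1 peaks in the 6 libraries without CM, and 1 and 0 in CM +Dox replicates 1 and 2. The 1 peak left was at none of the sites named here. A lost site lay inside Ccr2 (chr9:124108394-124108939; ranks 70.3, 67.3, 29.1, 63.1, 58.4 and 44.5). At equal list lengths and above the median score it was called in 4 of the 6, so the pattern was not kept; with a -log10 p of 9 or more it was. Another site, 3.47 kb from Ccr2, (chr9:124112609-124112927) was called in 5 of the 6 and in no CM +Dox library. At the lost Ccr2 site CHD7 was called in 3 of the 6 and in CM +Dox replicate 2.

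Ccr1, a receptor of monocytes and neutrophils, and Ccr3, the eotaxin receptor of eosinophils, kept RUNX1. Ccr1 had 2, 3, 4, 3, 3 and 5 peaks without CM and 3 and 4 with it, so the groups overlapped. Its start carried RUNX1 in all 8 libraries (chr9:123968277-123968938, over the promoter printed above), with ranks of 68.7, 55.1, 47.8, 63.1, 79.8 and 83.0, and 10.8 and 60.8 with CM. A site 10.6 kb from Ccr1 (chr9:123951160-123951558) was also called in all 8, with ranks of 74.1, 79.3, 70.7, 79.0, 79.3 and 85.1, and 74.9 and 87.0 with CM. CHD7 was called in all 8 libraries at both. Ccr3 had 2, 4, 3, 4, 2 and 3 RUNX1 peaks without CM and 1 in each CM +Dox library. The 1 that stayed (chr9:124037746-124038607, 6.05 kb from the gene) had ranks of 85.0, 83.4, 86.4, 89.3, 80.1 and 82.3, and 27.6 and 29.1 with CM, with CHD7 in all 8 libraries.

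**Figure D5:**
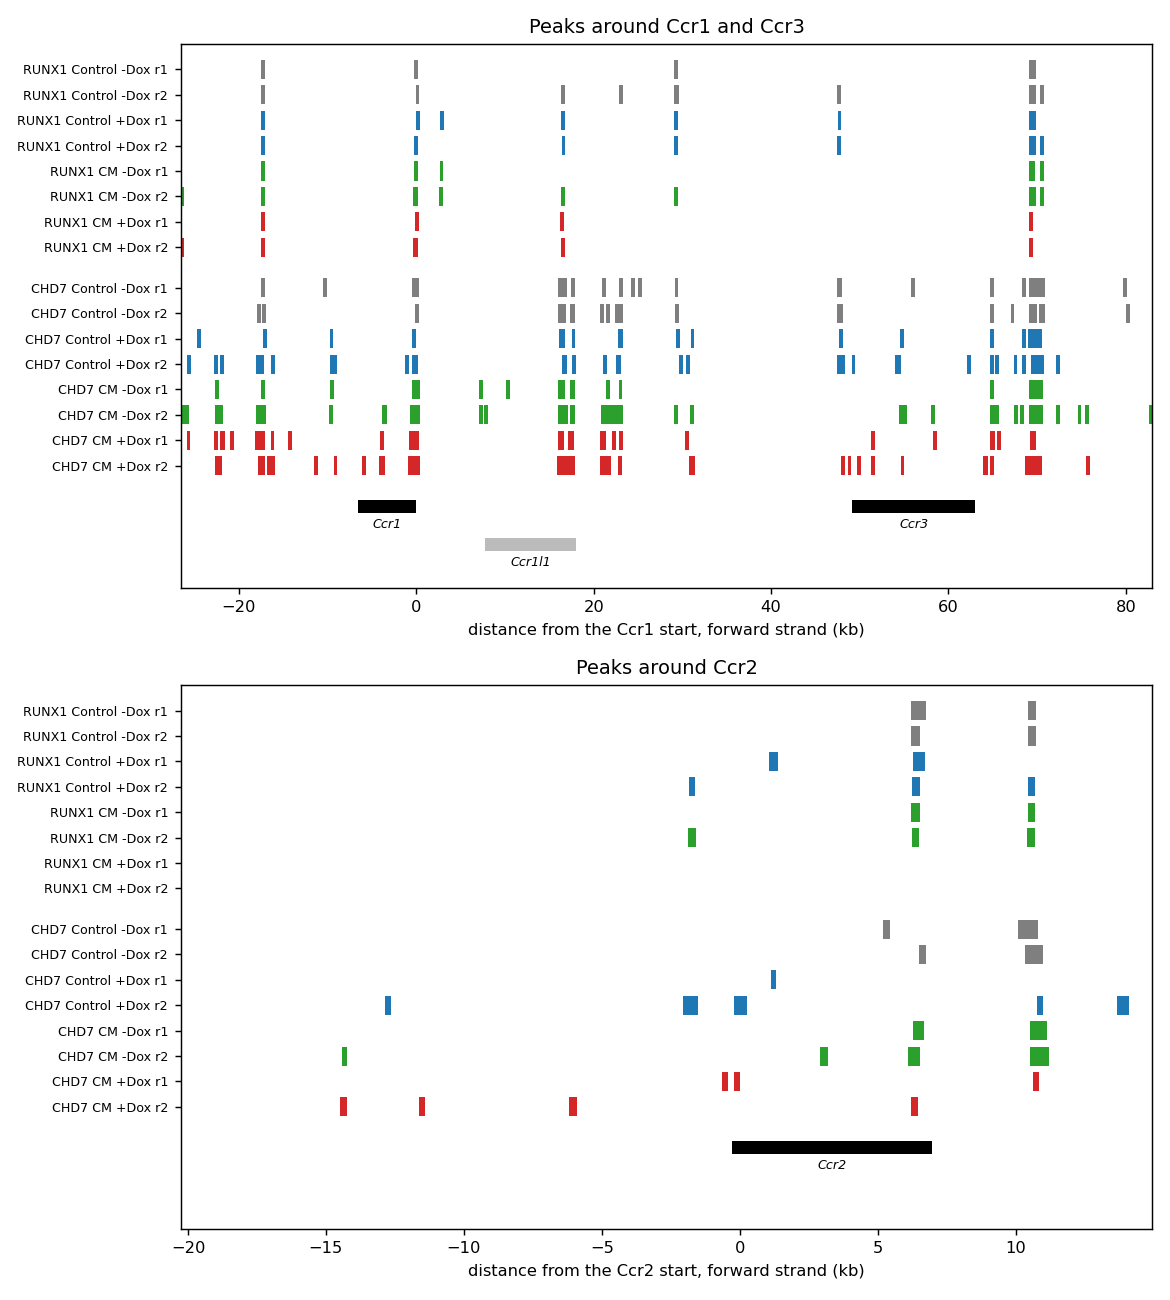
Peaks of each library (rows, coloured by condition) along the forward strand in kb, around Ccr1 and Ccr3 (top, from the Ccr1 start) and Ccr2 (bottom, from the Ccr2 start); bars show genes. RUNX1 appears in all 8 libraries at the Ccr1 start and beside Ccr3, whereas the stretch drawn around Ccr2 holds no RUNX1 peak in either CM +Dox row.

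Further lost sites lay at Ccr4, Cxcr2 and Ccl9. Ccr4, the receptor through which T cells follow Ccl17 and Ccl22, had a lost site inside the gene (chr9:114501161-114501521) with ranks of 69.5, 71.7, 73.2, 61.6, 89.0 and 88.2, and no CHD7 peak on it in any library. Cxcr2, through which neutrophils follow Cxcl1, Cxcl2, Cxcl3 and Cxcl5, had 3, 5, 3, 3, 3 and 5 RUNX1 peaks without CM and 1 in each CM +Dox library. Its lost site lies inside the neighbouring gene Rufy4 (chr1:74135212-74135658), with ranks of 93.1, 95.1, 91.2, 91.6, 62.8 and 75.04. These were the highest ranks among the lost sites in the 4 Control libraries. CHD7 was called there in Control +Dox replicate 2 alone. The site between Ccl9 and Ccl6, CC ligands made by myeloid cells, lies 3.26 kb from Ccl9 (chr11:83569336-83569659), with ranks of 68.4, 62.3, 57.5, 63.5, 76.5 and 70.3 and no CHD7 peak. All 3 sites kept the pattern at equal list lengths and above the median score.

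Sites called in all 8 libraries numbered 15 of 68 (22.1%), against 22.3% of all RUNX1 sites. Among ligands, the highest lay 16.8 kb from Cxcl5, a neutrophil attractant (chr5:90741991-90742490). Its ranks were 95.6, 94.9, 94.8, 96.4, 93.8 and 98.1 without CM and 77.8 and 95.1 with it, and CHD7 was called in all 8 libraries. The site shared by Ccl3 and Ccl4, the macrophage inflammatory proteins, lies 7.25 kb from Ccl3 (chr11:83640018-83640596). It had ranks of 91.3, 84.1, 88.3, 83.4, 94.0 and 94.7, and 97.1 and 97.2 with CM, with CHD7 in 7 of 8 libraries. The site near Ccl26, an eotaxin, lies inside Hip1 (chr5:135545088-135545851), with ranks from 71.1 through a median of 83.7 to 90.8, and 92.9 and 92.4 with CM. These ligand sites stood high in every list.

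Lower down, the site 19.6 kb from Ccl5, an attractant of T cells and monocytes (chr11:83550093-83550746), had a median rank of 81.0 over the lists without CM. Its ranks within the shorter CM +Dox lists were 27.1 and 69.8. Such medians only sum up the standing within each list, and the ranks with CM are not measured against them. The site inside Ccl9 (chr11:83577069-83577592) had a median of 71.1, then 26.4 and 55.0, with CHD7 in all 8 libraries. The site inside the platelet factor gene Pf4, between Cxcl5 and Cxcl3 (chr5:90771906-90772644), had a median of 72.4, then 7.71 and 60.2. At Ccl25, a thymus and gut ligand, the site covered the start shared with Elavl1 (chr8:4325045-4325724; median 35.1, then 56.0 and 47.1). The site near the mucosal ligand Cxcl17, inside Lipe (chr7:25395492-25396263), had a median of 28.8, then 56.97 and 54.3, with no CHD7 peak.

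Among receptors beside Ccr1 and Ccr3, Ccr10, a skin-homing receptor, had a site 183 bp from the gene (chr11:101172427-101172815; median 86.7, then 27.1 and 83.2). Cxcr5, the B cell follicle receptor, had a site 11.2 kb away (chr9:44537608-44538456; median 91.3, then 62.8 and 79.99). Cxcr1 and Cxcr2 shared a site (chr1:74178601-74178948; median 71.8, then 39.9 and 79.7) without CHD7. Together with the sites already described these make up the 15, of which CHD7 was called in all 8 libraries at 6 (40.0%), against 31.7% of 4833, and in none at 2.

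At equal list lengths, 12 chemokine sites were called in all 8 libraries and their ranks can be set side by side. Their median rank was 69.9, 69.9, 58.2, 68.3, 67.4 and 71.8 in the 6 libraries without CM, and 33.7 and 76.0 in CM +Dox replicates 1 and 2. Over all 3066 such sites it was 72.7 to 77.1 in the 8 libraries. The 2 CM +Dox libraries lie on either side of the others, so the low value belongs to replicate 1.

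A pair of sites called in all 6 libraries was found in CM +Dox replicate 2 alone. One is shared by Ccl2, Ccl7 and Ccl11 (chr11:82041580-82042295, 3.42 kb from Ccl7), ligands for monocytes and, in the case of Ccl11, eosinophils. Its ranks were 82.4, 91.7, 85.1, 85.9, 81.3 and 86.2, and 58.0 in replicate 2, and CHD7 was called there in all 8 libraries. The other lies 5.58 kb from Cx3cl1, the membrane-bound ligand fractalkine (chr8:94788009-94788506), with ranks of 74.3, 61.4, 82.9, 73.4, 78.1 and 80.2, and 29.5 in replicate 2. Leaving out CM +Dox replicate 2 counts both as lost and brings the number to 10.

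The single gained RUNX1 site, 1 of 68 (1.47%) against 0.835% of all, lies inside Plekhh3 in the Ccr10 window (chr11:101171316-101171558), with ranks of 62.3 and 40.0 and no CHD7 peak. It kept the pattern at equal list lengths and not above the median score, where 1 CM +Dox library called it.

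CHD7 peaks in the windows merged into 205 sites of 85223, of which 99 (48.3%) were called in 1 library only, against 59.5% of all. The number called was 56, 63, 46, 91, 53 and 105 without CM and 78 and 93 with it.  Of the 22 called in all 6 libraries without CM, both CM +Dox libraries called all 22, against 84.0% of 5775, and the number lost was 0 of 205 (0.248% of all). No test was made of that difference. Gained were 2 of 205 (0.976%), against 1.39% of all. By the exact permutation test 0 of 85223 CHD7 sites passed 0.05 after Benjamini-Hochberg adjustment (smallest adjusted p = 0.889). At an unadjusted 0.0357 there were 1392 in the genome, 2 of them the gained sites here.

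Those 22 sites are 10.7% of the 205, against 5.69% of all CHD7 sites. Among them 8 overlapped RUNX1 in all 8 libraries and 8 overlapped no RUNX1 peak in any, the latter being 36.4% of 22 against 23.0% of 4852. CHD7 without RUNX1 lay at Xcr1, a receptor of cross-presenting dendritic cells, at 2 sites (chr9:123852180-123853413, partly inside the gene, and chr9:123844766-123845820, inside Fyco1). Ranks at the first were 73.4, 74.4, 90.3, 93.3, 52.6 and 70.6 without CM and 85.8 and 80.2 with it. The highest of the 8 lay inside Cxcl17 (chr7:25409141-25409747; ranks 91.4, 95.9, 95.3, 94.4, 95.8 and 97.4, and 67.1 and 96.4 with CM). The others lay near Ccl9, Cxcl2, Cxcl9, Ccl26 and Ccr3. Among the sites with RUNX1, that inside Ccl9 (chr11:83576491-83578042) had CHD7 ranks from 78.7 through a median of 94.4 to 96.6 without CM, and 98.1 and 84.6 with it. The site beside Ccr3 (chr9:124037357-124039561) had ranks from 92.9 through a median of 95.3 to 96.4, and 89.6 and 71.5.

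Of the gained CHD7 sites, 1 lies 305 bp from Cxcl2, a neutrophil attractant (chr5:90903048-90903594), and 1 inside Ccr3 (chr9:124019975-124020281). Both had ranks of 67.1 and 28.7, from tied scores, and neither kept the pattern at equal list lengths or above the median score. The number gained was 22 without CM +Dox replicate 1 and 21 without replicate 2, so the 2 libraries shared few of the sites that either called alone. The neutrophil-attracting cluster had many CHD7 peaks in every condition. Cxcl1 had 4, 4, 4, 7, 6 and 5 without CM and 7 and 8 with it, with RUNX1 peaks in CM -Dox replicates 1 and 2 and CM +Dox replicate 2 only. Elsewhere, Ccl28, an epithelial ligand, had 1 or 2 peaks in 7 of 8 libraries and no RUNX1, and Ccr8, a chemokine receptor of T cells, had CHD7 in 6 of 8.

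CHD7 was called at 50 of the 68 RUNX1 sites in at least 1 library (73.5%, against 74.3% of all 21664) and at 18 in none. Near chemokine genes, 34 RUNX1 sites were shared by the 2 Control -Dox libraries and served as the baseline. The share of them with CHD7 was 41.2%, 61.8%, 41.2%, 55.9%, 44.1% and 61.8% in the 6 libraries without CM, and 35.3% and 44.1% with it. The Wilson 95% interval was 21.5% to 52.1% for the lowest and 45.04% to 76.1% for the highest, and covers counting error only. The means were 39.7 ± 6.24% (SD, n = 2) and 51.0 ± 9.96% (SD, n = 6). The difference was -11.3 points, against -7.06 points over all 11460 baseline sites, and the groups overlapped when replicate numbers were ignored. Within replicate numbers 1 and 2 the differences were -6.87 and -15.7 points. CM +Dox had the lowest share within each number, near chemokine genes and over all baseline sites. Above the median score the difference was -1.33 points, and with the baseline taken without the mismatched library it was -10.1 points. At the 8 lost sites CHD7 was called at 3, 4, 3, 4, 3 and 5 without CM and at 1 and 3 with it; over all lost sites the share was 36.0% to 54.5% without CM and 21.2% and 28.7% with it. At the 15 RUNX1 sites of all 8 libraries the numbers were 7, 11, 9, 11, 9 and 10, and 8 and 9, against 55.0% to 75.4%, and 53.2% and 68.0%, of all such sites.

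In the Control cells, no RUNX1 site near chemokine genes differed with doxycycline in both replicates, but this comparison includes the -Dox library whose peak names read +Dox. Of the 68 sites, 0 were called in both Control +Dox and neither Control -Dox library, and 0 the reverse, against 0.669% and 1.67% of all sites. Without that library, 0 of 68 were called in both Control +Dox libraries and not in the 1 Control -Dox library left, and 3 the reverse, against 2.79% and 6.6% of all. With 2 libraries against 2 the smallest exact permutation p is 0.333, so these comparisons carry no test. For CHD7, 2 of 205 sites were called in both Control +Dox and neither Control -Dox library, near Ccr1 and Ccr3, and 4 the reverse, near Ccl5, Cxcl5 and Cxcl3, Xcr1 and Ccr3, against 1.11% and 1.19% of all.

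The uninduced CM clone against Control -Dox showed 4 RUNX1 sites with both CM -Dox and neither Control -Dox library, and 2 the reverse, against 5.42% and 3.7% of all. Without the Control -Dox library whose names read +Dox the numbers were 5 and 5, against 9.66% and 8.22%. Among the 4 were sites near Cxcl1, Ccr4 and Ccr1. The 2 were called in all 4 Control libraries and none of the 4 CM libraries (2 of 68, against 1.67% of all). One of them lies 2.01 kb from Cxcr5 (chr9:44528456-44528796; ranks 40.5, 72.4, 23.9 and 51.3). Both were thus absent from the CM clone before induction. The reverse, all 4 CM libraries and no Control library, held for 0 of 68 (0.452% of all). Without that library, the 2 patterns held for 3 and 0 of 68, against 2.03% and 0.726%. For CHD7, 7 sites were called in both CM -Dox and neither Control -Dox library and 3 the reverse, against 2.89% and 1.09%. One of the 7 was called in all 4 CM libraries and no Control library (chr1:74151019-74151459, near Cxcr2; ranks 41.7, 84.7, 91.9 and 67.8), against 0.584% of all, and 0 of 205 showed the reverse (0.161% of all). These counts single out sites after their values were seen.

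Within the CM clone, 16 RUNX1 sites were called in both uninduced and neither induced library and 1 the reverse, against 20.1% and 1.92% of all. Against Control +Dox the numbers were 14 and 2, against 16.9% and 2.86%; these comparisons share the CM +Dox libraries. Among sites outside the 8 lost ones, each comparison included calls at Cxcr2 and Ccr3, but at different sites. For CHD7, 4 sites were called in both CM -Dox and neither CM +Dox library and 5 the reverse, against 1.67% and 2.54%. Against Control +Dox they were 3 and 9, against 1.46% and 4.6%.

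Genes that relay the chemokine signal inside the cell were counted next. Of 22 genes of G proteins, Rac activators, lipid and protein kinases and their regulators, 20, 20, 21 and 18 had RUNX1 in both replicates of Control -Dox, Control +Dox, CM -Dox and CM +Dox, against 43.8%, 41.1%, 45% and 34.5% of all genes. Their windows held 49 RUNX1 sites that each of the 6 libraries without CM called, of which 10 were lost, against 27.9% of all such sites. Lost sites lay at Dock2, Elmo1 and Vav1, activators of Rac, with 2 each, and at Prex1, Rgs2, Pik3cg and Ptk2b with 1 each. Dock2 had 7, 8, 7, 7, 8 and 7 RUNX1 peaks without CM and 2 and 3 with it, and Elmo1 had 6, 7, 6, 7, 5 and 7, and 2 and 3. The groups did not overlap at either gene, nor at Vav1, Prex1, Pik3cg, Grk6 and Plcb2 of the same list. Dock2 and Elmo1 were named for their lost sites, and the share of all genes without such overlap was not computed. The missing overlap thus does not set these genes apart. Grk2, a kinase that switches off receptors, had the 1 gained RUNX1 site of 108, against 0.835% of all. Of 282 CHD7 sites, 1 was lost, at Dock2, and 2 were gained, at Rgs2 and Elmo1, against 0.248% and 1.39% of all.

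Of 12 relatives outside the symbol rule, 9, 9, 9 and 7 had RUNX1 in both replicates, against the same shares of all genes. Their windows held 10 sites called in all 6 libraries, 2 of them lost (against 27.9% of all such sites), at the scavenging receptors Ackr2 and Ackr4. Ackr4 had 1 RUNX1 peak in each library without CM and 0 in both with it, and Ackr2 had 1, 2, 1, 1, 1 and 1, and 0 in both. C5ar1, the complement C5a receptor, had 5, 5, 4, 4, 4 and 5 RUNX1 peaks, and 2 and 5 with CM. CHD7 was gained at 2 of their 55 sites, against 1.39% of all, 1 near Ackr1 and 1 near the formyl peptide receptors Fpr1 and Fpr2. The windows of the 8 myeloid markers held 9 RUNX1 sites called in all 6 libraries, of which 1 was lost, against 27.9% of all such sites. It lay at Kit, which had 1 RUNX1 peak in each of the 6 libraries and 0 with CM. CHD7 was gained at 2 of the markers' 50 sites, at Csf1r and Itgam, against 1.39% of all.

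The 20 kb window set which sites were counted. Of RUNX1 sites 15 to 25 kb from the nearest chemokine gene, 11 lay inside the limit, 5 of them called in all 6 libraries and 2 of these lost. Outside lay 16, of which 5 were called in all 6 and 0 were lost.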

How the data were processed

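ChIP-seq peak lists of RUNX1 and CHD7 in 416B cells were used, 1 list per library and 16 in all; the IgG sample was not analysed here. Per the submitters' processing notes, the authors used Bowtie2 2.0.6, MACS2 2.0.10 and the mm10 build. What the calls were made against, how reads were filtered and how many there were is not given in the sources used here. Each peak's score, as deposited, is its −log10 p-value. Its threshold, per the peak names, was 1e-09 in 5 RUNX1 lists, 1e-07 in 3 and 0.01 in the 8 CHD7 lists. Scores served for ranks and filters inside 1 list, never between lists.

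Gene positions came from RefSeq (GRCm38.p6, the assembly of mm10). Exons and UTRs were not used here. Overlapping peaks (1 bp or more) of an antibody's 8 lists formed 1 site; a library called a site when a peak of it overlapped. The calls of every site were tested by a two-sided exact permutation test (2 against 6 libraries) with Benjamini-Hochberg adjustment over all sites of the antibody. Counts over the chemokine genes carry no test. The calling of lost and gained sites was run on simulated lists of well-separated sites without missed or false peaks. It recovered 300 of 300 and 100 of 100, which checks the code and not the error rate in real lists. Python 3.11.15, numpy 2.4.6, pandas 2.3.3 and scipy 1.17.1 were used.

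Values of 1 chemokine gene, which the counts include, are not reported here. The genes and lists were chosen with earlier results of these data known. Named with values were genes with a RUNX1 site in all 6 libraries without CM or a lost or gained site, then up to 10 more per antibody by mean rank of their best peak, and in the other lists genes with a lost or gained site and up to 4 by that rank. Alternatives were windows of 5 kb or the gene body, 3 stricter or equal peak lists, an overlap fraction of 0.5 of the shorter interval, leaving out each library, and the replicate block; assignment to the nearest gene, each replicate number alone, and comparisons with Control -Dox without its RUNX1 replicate 1 were added after the data were seen.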

Additional observations from a re-analysis of the deposited data

Results flagged for a closer look

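Of 5 per-library series tested for a value standing far from the rest, 1 was singled out: the number of chemokine genes with a RUNX1 peak in CM -Dox replicate 2, at 31, against 28 to 29 in the other 5 libraries without CM. Its gap to the nearest other value, divided by the whole range, was 0.667, above the limit of 0.625 for 6 values, a test that chance passes in about 1 of 20 groups. That library also has the longest RUNX1 list, with 16163 peaks, and its part in the value was not tested. Without it the difference of CM +Dox from the others was -4.7 genes.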

How the results depend on the processing

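For genes with a RUNX1 peak, the difference of -5.17 kept its sign in every setting run: -10.17 above the median score, -1.33 at equal list length, -7.33 and -3.0 within replicate numbers 1 and 2, and -7.67 to -2.67 leaving out 1 library, the extremes being without CM +Dox replicates 2 and 1. For CHD7 the difference of 0.333 genes turned to -1.0 with 5 kb windows, -1.83 at equal list length and -2.33 within replicate number 2, and ran from -1.17 to 1.83 leaving out 1 library, turning negative at -0.3 without Control -Dox replicate 1 or CM -Dox replicate 1, -0.9 without Control +Dox replicate 1 and -1.17 without CM +Dox replicate 2. Lost RUNX1 sites (8) were 4 with 5 kb windows, 3 in gene bodies, 5 by nearest gene, 14 in replicate number 2 alone, and 8 to 11 leaving out 1 library. Gained RUNX1 sites (1) were 0 in gene bodies, above the median score or by nearest gene, 3 at equal list length, 3 and 5 in replicate numbers 1 and 2 alone, and 1 to 4 leaving out 1 library, with 4 without CM +Dox replicate 1 and 2 without CM +Dox replicate 2 or CM -Dox replicate 2. Lost CHD7 sites (0) were 2 and 6 in replicate numbers 1 and 2 alone, and 0 to 1 leaving out 1 library, the 1 without Control -Dox replicate 2. Gained CHD7 sites (2) were 1 in gene bodies or above the median score, 0 at equal list length, 37 and 27 in replicate numbers 1 and 2 alone, and 2 to 22 leaving out 1 library, with 4 without CM -Dox replicate 2. Smaller windows and single replicate numbers test fewer sites or libraries; the cause of the other moves was not tested.

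Over all sites, differences between replicates 1 and 2 correlated weakly between conditions, at 0.0208 to 0.218 for RUNX1 and -0.0935 to 0.0681 for CHD7. The share of baseline RUNX1 sites with CHD7 was higher in replicate 2 in every condition, whereas RUNX1 list length was higher in replicate 2 only in the CM cells. Whether the numbers pair the libraries was thus not settled. The replicate block gave -5.17, 0.333, 8, 1, 0, 2 and -11.3 points, equal to the values without it by construction. Without the RUNX1 library Control -Dox replicate 1, a setting added after the data were seen, sites called only in Control -Dox against Control +Dox moved from 0 to 3 and against CM -Dox from 2 to 5; sites of CM -Dox alone were 5 in place of 4, and those of the 2 constructs 3 for Control and 0 for CM. Fewer libraries have to agree there. CHD7 at baseline RUNX1 sites kept its sign in every setting run. Read depth is unknown and limits what an absent peak shows.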
